A study of Homo sapiens with 11 samples.

Results

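Control HEK293T cells, the reference condition of a study on the ubiquitin-like protein URM1 and the enzymes that activate it, made up 3 of the 11 sequenced libraries, and these 3 were the members described here. They were chosen by their group label alone, and their values were not set against those of the knockdown libraries. HEK293T is a human embryonic kidney line that carries adenoviral E1 genes and the SV40 large T antigen. The labels give the control group as control siRNA, and the methods of the study name a non-targeting siRNA as negative control, without its dose. The supplement of the study calls the control libraries HKWT. Cells were grown in DMEM with 10% fetal bovine serum, and the knockdown cells were harvested 48 h after transfection. The 3 libraries were labelled as biological replicates without a word on separate cultures, so that a p-value below measures only the spread between these libraries.

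Cells answer damage and shortage with a small set of transcription programmes. In the integrated stress response (ISR), 4 kinases phosphorylate the translation factor eIF2alpha, overall protein synthesis falls, and the messenger RNA of the transcription factor ATF4 is translated more, after which ATF4 and its partners raise genes for amino acid synthesis, amino acid uptake and tRNA charging. Misfolded protein in the endoplasmic reticulum (ER) acts through IRE1, ATF6 and PERK in the unfolded protein response, misfolded protein in the cytosol through HSF1 in the heat shock response, and electrophiles through NRF2. Interferon, NF-kB, p53, hypoxia, sterol and metal responses each have their own factor and their own targets. A transcript level in a single condition says how much of each message was present and not how strongly a pathway was switched on, since no unstressed reference was measured here.

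Among 13 stress programmes, the ISR genes stood highest in the control cells and the metal, interferon and NF-kB genes lowest. The lists were chosen with earlier results of these data known, and they differ in make-up. The ISR list holds 10 amino acid synthesis genes and 8 transporters, and 15 of the 25 interferon genes are listed as induced genes. The part of list make-up in this order was not tested. All 45 ISR genes were detected, a gene being detected at 1 or more FPKM (fragments per kilobase, scaled to library size) in each of the 3 libraries, and their median was 46.9 FPKM against 7.83 FPKM for the 11066 detected protein-coding genes. Antioxidant enzymes acting on peroxide and superoxide had a median of 39.2 FPKM, midway between PRDX1 at 61.6 and GPX8 at 16.8 FPKM, heat shock genes 22.6 FPKM and mitochondrial protein stress genes 19.6 FPKM. By the median percentile among protein-coding genes, these lists stood at 86.3, 90.4 and 88.6, in another order. The unfolded protein response, NRF2, p53, hypoxia and sterol genes had medians between 9.33 and 12.3 FPKM. The immediate early genes had a median of 2.64 FPKM, NF-kB genes 0.713 FPKM, interferon genes 0.178 FPKM and metal-response genes 0 FPKM. FPKM is a level per length of transcript, so genes may be compared on it, but a level depends on the gene length the authors used.

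**Figure D1:**
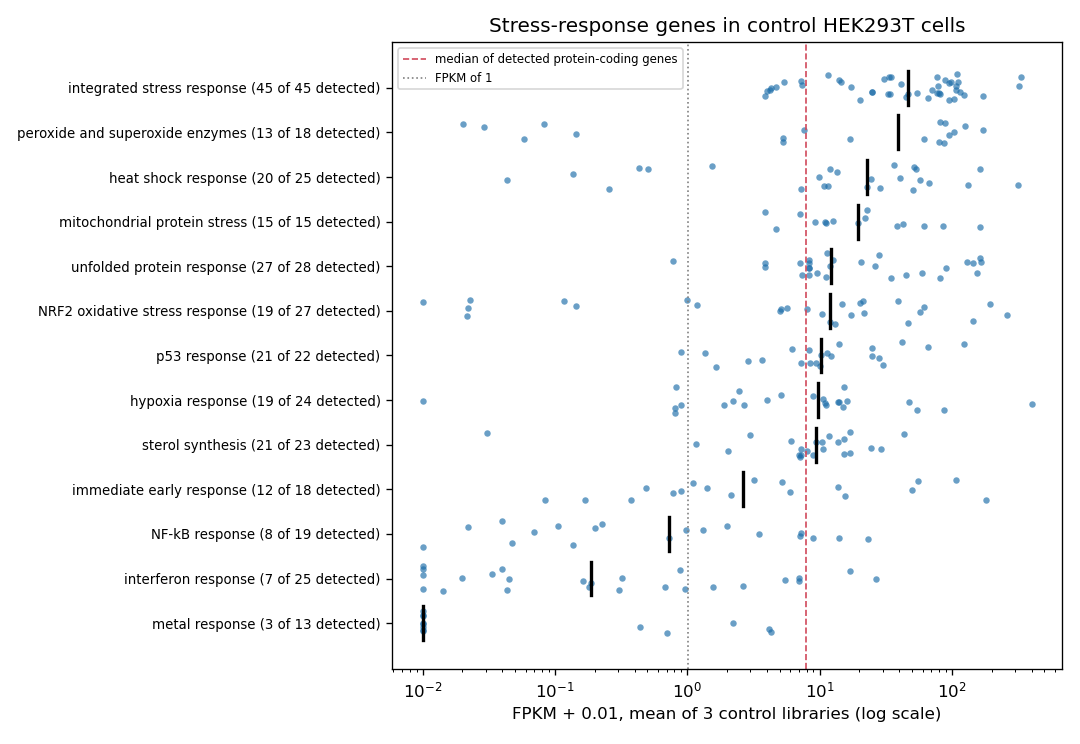
Mean FPKM of each gene in 13 stress programmes over the 3 control libraries, with 0.01 added so that genes at 0 can be drawn on the log axis. Each point is a gene, black bars mark the median of a programme, the dashed line marks the median of detected protein-coding genes at 7.83 FPKM and the dotted line marks 1 FPKM. Of the 45 ISR points, 37 lie to the right of the dashed line, and most interferon, NF-kB target and metal genes lie to the left of the dotted line.

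The factors of these pathways bind short DNA motifs, which some promoters of the listed genes hold, and a few promoters are printed to show the motif before genes of different level: a higher and a lower gene each of the ISR, heat shock and interferon programmes, and a highly expressed gene of the unfolded protein response. They are the 250 bases before and 50 bases after the transcription start, from RefSeq on GRCh38.p14, 5′ to 3′ on the strand of the gene, with motif matches in capitals. ATF3 (chr1:212565157-212565456, plus strand) and the hormone gene FGF21 (chr19:48755274-48755573, plus strand) each hold 1 match to the C/EBP-ATF response element TGATGNAAN, at 107 and 3.96 FPKM.
ATF3: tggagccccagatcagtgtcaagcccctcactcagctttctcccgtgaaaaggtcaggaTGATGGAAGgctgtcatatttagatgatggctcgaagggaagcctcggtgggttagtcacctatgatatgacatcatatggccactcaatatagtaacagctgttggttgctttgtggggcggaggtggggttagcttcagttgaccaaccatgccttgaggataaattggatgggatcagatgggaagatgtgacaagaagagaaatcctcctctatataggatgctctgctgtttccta
FGF21: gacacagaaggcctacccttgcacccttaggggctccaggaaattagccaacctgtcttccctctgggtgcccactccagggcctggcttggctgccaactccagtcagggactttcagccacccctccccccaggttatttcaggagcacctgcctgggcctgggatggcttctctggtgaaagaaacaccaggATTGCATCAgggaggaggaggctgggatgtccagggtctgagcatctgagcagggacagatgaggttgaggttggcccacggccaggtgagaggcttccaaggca

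HSPA5 (chr9:125241294-125241593, minus strand), which encodes the main ER chaperone BiP and stood at 156 FPKM, holds 1 match to the ER stress element, CCAAT and CCACG set 9 bases apart. The 2 HSP70 genes HSPA8 (chr11:123062087-123062386, minus strand) and HSPA6 (chr1:161524290-161524589, plus strand) hold 2 and 1 matches to the heat shock element, the blocks GAA, TTC and GAA each set 2 bases apart, at 51.2 and 0.0337 FPKM.
HSPA5: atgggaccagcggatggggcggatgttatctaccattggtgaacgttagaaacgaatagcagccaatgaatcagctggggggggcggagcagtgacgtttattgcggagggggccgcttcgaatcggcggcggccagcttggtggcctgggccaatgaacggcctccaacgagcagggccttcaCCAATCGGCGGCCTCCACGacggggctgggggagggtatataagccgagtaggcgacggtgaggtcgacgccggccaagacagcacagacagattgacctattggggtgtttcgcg
HSPA8: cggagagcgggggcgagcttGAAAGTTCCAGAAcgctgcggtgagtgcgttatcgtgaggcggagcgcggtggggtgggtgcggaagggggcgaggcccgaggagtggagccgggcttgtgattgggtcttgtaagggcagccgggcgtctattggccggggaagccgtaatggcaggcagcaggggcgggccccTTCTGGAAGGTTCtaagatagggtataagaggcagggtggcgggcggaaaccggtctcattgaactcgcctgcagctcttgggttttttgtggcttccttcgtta
HSPA6: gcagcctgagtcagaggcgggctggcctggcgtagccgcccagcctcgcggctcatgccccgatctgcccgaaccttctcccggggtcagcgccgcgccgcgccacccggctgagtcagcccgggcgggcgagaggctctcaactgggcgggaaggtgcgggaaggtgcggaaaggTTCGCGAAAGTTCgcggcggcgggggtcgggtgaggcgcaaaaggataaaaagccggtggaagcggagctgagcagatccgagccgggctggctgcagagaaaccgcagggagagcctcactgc

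ISG15 (chr1:1013247-1013546, plus strand), a ubiquitin-like protein induced by interferon, holds 2 overlapping matches to the interferon-stimulated response element core, GAAA and GAAA set 2 bases apart, at 26.7 FPKM. IFI44 (chr1:78649539-78649838, plus strand), another interferon-induced gene, holds 1 match and had no count in any library.
ISG15: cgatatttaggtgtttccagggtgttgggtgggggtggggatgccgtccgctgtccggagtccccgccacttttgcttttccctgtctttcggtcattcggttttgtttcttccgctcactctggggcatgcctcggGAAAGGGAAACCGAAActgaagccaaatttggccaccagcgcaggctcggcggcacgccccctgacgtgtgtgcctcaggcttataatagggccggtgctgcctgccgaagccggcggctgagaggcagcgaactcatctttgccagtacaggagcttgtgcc
IFI44: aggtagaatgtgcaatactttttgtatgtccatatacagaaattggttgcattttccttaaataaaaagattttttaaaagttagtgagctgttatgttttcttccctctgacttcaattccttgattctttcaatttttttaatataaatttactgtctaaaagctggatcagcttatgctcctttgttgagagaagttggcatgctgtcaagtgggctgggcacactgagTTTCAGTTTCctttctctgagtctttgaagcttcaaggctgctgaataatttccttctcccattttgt

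Both strands of each promoter were searched, and a match is a match of letters, not a bound site. Promoters are reference sequences, so the shares below describe the lists and were not measured in these cells. Whether a motif bears on the level of a gene was not tested. The ER stress element was found before 7 of the 25 unfolded protein response genes with a promoter in the table (28.0%) and before 0.0806% of all 27305 promoters. The interferon core was found before 12 of 19 interferon genes (63.2%) against 3.65% of all promoters, the NF-kB motif (GGG and TTCC set 3 bases apart) before 9 of 16 (56.3%) against 6.47%, and the metal response element TGCACNC before 6 of 7 (85.7%) against 11.9%. The heat shock element was found before 5 of 22 heat shock genes (22.7%) against 0.487% of all promoters, the C/EBP-ATF element before 8 of 36 ISR genes (22.2%) against 3.67%, the hypoxia motif TACGTG before 4 of 20 (20%) against 3.33%, the antioxidant core TGACNNNGC before 5 of 19 (26.3%) against 13.6% and the sterol element TCACNCCAC before 1 of 16 (6.25%) against 1.15%. All 7 unfolded protein response genes with the ER stress element were detected. CANX, XBP1, HSPA5, HSP90B1 and CALR, from 165 to 131 FPKM, were the 5 highest of the 28 genes of the list, and the other 2 were CRELD2 at 8.34 and ERO1B at 7.37 FPKM. Of the 12 interferon genes with the core, ISG15 at 26.7, IFI6 at 5.50 and IFITM1 at 2.61 FPKM were detected, and the other 9 lay under 1 FPKM. MT1H has 4 metal elements and MT1B and MT4 have 3 each, and all 3 had no count, while MT2A, with 6, stood at 4.14 FPKM.

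The control libraries held 15703118, 15682341 and 15175945 counts on genes. A count was present in at least 1 of them for 30828 of the 58735 listed genes, and 27907 genes had none. The detected genes numbered 13179, of which 11066 were protein-coding (55.5% of the 19951 listed) and 2113 were of another kind. Counts of a gene were tested for homogeneity across the 3 libraries by a chi-square test scaled by library size, with Benjamini-Hochberg adjustment over the 16021 genes with enough counts, a test that compares libraries and not conditions. It called 4003 genes as differing between the libraries, which is 25.0% of the genes tested, and the share called rose with depth from 5.82% of genes under 30 mean counts to 70.5% of genes over 3000. The background for a list below is 25.0% over all genes tested, or 42.6% for genes of 1000 to 3000 mean counts, and the part of depth in the count of a list was not tested.

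The transcription factors of the ISR were all expressed, and ATF4 was among the most abundant messages of the cell. ATF4, which drives the response, stood at 332, 354 and 321 FPKM in replicates 1, 2 and 3, with replicate 2 highest. ATF3, a stress-induced repressor, stood at 107, 109 and 104 FPKM. CEBPG, a partner of ATF4, had 77.6 ± 2.51 FPKM (SD, n = 3), and CEBPB, another bZIP partner, had 46.9 ± 2.25 FPKM. DDIT3, which encodes the pro-apoptotic factor CHOP, stood at 30.7, 33.0 and 28.4 FPKM. NUPR1, a small stress-induced chromatin protein, had 7.39 ± 0.208 FPKM, and ATF5, which has been tied to mitochondrial stress, had 4.66 ± 0.184 FPKM. Of these 7 factors, ATF4 was the one called as differing between libraries, and NUPR1 and ATF5 were the ones below the median of detected protein-coding genes.

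Of the 4 eIF2alpha kinases, EIF2AK1 (HRI, the haem-sensing kinase) was the highest at 34.5 ± 1.24 FPKM (SD, n = 3). EIF2AK2 (PKR, the kinase that senses double-stranded RNA) had 7.22 ± 0.0812 FPKM, EIF2AK4 (GCN2, which senses uncharged tRNA) 4.22 ± 0.245 FPKM and EIF2AK3 (PERK, the ER kinase) 3.89 ± 0.263 FPKM. The ranges over libraries of EIF2AK4 and EIF2AK3 overlapped, and those of EIF2AK1 and EIF2AK2 did not.

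Targets for amino acid supply were high. The serine synthesis enzymes PSAT1, at 298, 326 and 338 FPKM, and PHGDH, at 108, 113 and 103 FPKM, lay above PSPH, the last enzyme of the same route, at 34.2 ± 0.613 FPKM. PYCR1, for proline, had 110 ± 4.14 FPKM, and the folate enzymes MTHFD2 and SHMT2 had 98.8 ± 3.75 and 94.6 ± 4.02 FPKM. Asparagine synthetase, ASNS, was the lowest of the 10 synthesis genes at 4.27 ± 0.456 FPKM, and 96.1% of its coding bases are shared with another gene model on the same strand. The 8 transporters ran from SLC1A4 at 11.6 FPKM to the glutamine carrier SLC1A5 at 123 ± 3.02 FPKM. SLC7A5 and SLC3A2, the 2 chains of a neutral amino acid exchanger, had 112 ± 3.49 and 95.5 ± 1.34 FPKM, and SLC7A11, the cystine carrier, stood at 18.6, 19.0 and 22.8 FPKM with replicate 3 highest. The tRNA synthetases SARS, GARS, NARS and WARS lay between 44.9 and 171 FPKM, and the tRNA exporter XPOT had 78.8 ± 4.22 FPKM.

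Another 6 ISR genes, some of which oppose the response, lay between 24.8 and 104 FPKM on average. SESN2, which restrains growth signalling, had 104 ± 2.31 FPKM (SD, n = 3), DDIT4 88.8 ± 2.28 FPKM, and TRIB3, a pseudokinase that opposes ATF4, stood at 79.0, 81.6 and 79.0 FPKM. CHAC1, which degrades glutathione, had 41.0 ± 0.808 FPKM, and the 2 subunits that bring a phosphatase to eIF2alpha, PPP1R15A and PPP1R15B, had 33.6 ± 1.37 and 24.8 ± 0.842 FPKM. None of these 6 genes was called as differing between libraries. Among the secreted products, STC2 was highest at 81.3 ± 1.86 FPKM, followed by the activin subunit INHBE at 33.1 ± 1.25 FPKM and VEGFA at 14.0 ± 0.555 FPKM. The stress hormones GDF15, at 5.48, 5.19 and 5.34 FPKM, and FGF21, at 3.80, 4.52 and 3.57 FPKM, lay below the median of detected protein-coding genes. In all, 37 of the 45 ISR genes lay above that median, 10 lay above 100 FPKM, and 18 of 45 (40.0%) differed between libraries by more than counting noise. That share was 25.0% over all genes tested and 42.6% for genes of 1000 to 3000 mean counts.

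**Figure D2:**
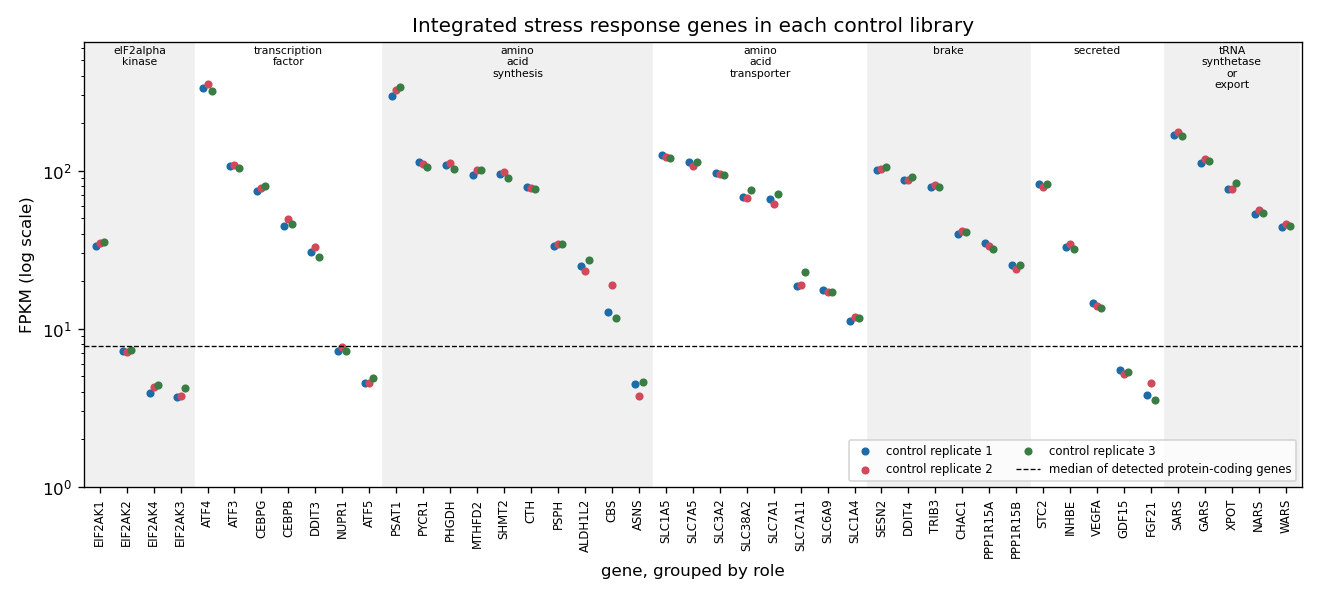
FPKM of the 45 ISR genes in each control library on a log axis, grouped by role and ordered by mean within a role. Each gene has 3 points, one per library, and the dashed line marks the median of detected protein-coding genes at 7.83 FPKM. The 3 points of a gene lie close together except for CBS, where replicate 2 stands above the other libraries.

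The 11 ER chaperones had a median of 28.1 FPKM and ran from DNAJB11 at 7.05 to CANX at 165 FPKM. The ER-associated degradation genes had a median of 8.38 FPKM, near that of detected protein-coding genes. XBP1, the factor spliced by IRE1, stood at 158, 164 and 166 FPKM, against 11.4 ± 0.406 FPKM (SD, n = 3) for ATF6 and 3.87 ± 0.178 FPKM for ERN1, which encodes IRE1. HSPA5 stood at 152, 162 and 153 FPKM, HSP90B1 at 138, 152 and 147 FPKM, and the lectin chaperones CANX and CALR at 165 ± 8.69 and 131 ± 3.34 FPKM. DNAJB9 and DNAJB11, co-chaperones of BiP, had 8.30 ± 1.17 and 7.05 ± 0.122 FPKM. The disulphide isomerases P4HB and PDIA4 had 89.8 ± 1.78 and 81.5 ± 0.185 FPKM. HERPUD1, at 20.4 ± 0.205 FPKM, was the highest of 7 degradation genes, and DERL3, at 0.580, 0.952 and 0.775 FPKM, was the 1 gene of 28 that was not detected. In this programme 12 of 28 genes were called as differing between libraries (42.9%). The share was 25.0% over all genes tested and 42.6% for genes of 1000 to 3000 mean counts. Gene counts do not tell spliced from unspliced XBP1.

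Members of the heat shock list lay between 0.0337 FPKM for HSPA6 and 314 FPKM for HSP90AB1 on average. HSP90AB1, the constitutive HSP90, stood at 307, 315 and 319 FPKM, and HSP90AA1 at 129, 133 and 139 FPKM. HSPA4 and HSPA8, the constitutive cytosolic HSP110 and HSC70, had 57.7 ± 1.67 and 51.2 ± 3.28 FPKM (SD, n = 3). The inducible HSPA1B stood at 12.7, 10.7 and 11.4 FPKM, and its near-identical neighbour HSPA1A at 0.695, 0.592 and 0.202 FPKM, a pair between which reads may be split in a way the counts do not settle. HSPA6, which is known as a strictly inducible HSP70, had 0.0753, 0.0258 and 0 FPKM, and the small chaperone CRYAB had 0.127 ± 0.0480 FPKM. HSPB1, another small chaperone, was higher at 36.7 ± 2.32 FPKM. The factors HSF1 and HSF2 had 24.6 ± 1.19 and 28.5 ± 1.05 FPKM, and the co-chaperones ran from CHORDC1 at 7.19 FPKM to STIP1 at 66.7 FPKM. In all 20 of 25 genes were detected. Of 22 tested, 5 were called as differing between libraries (22.7%, against 25.0% of all genes tested).

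All 15 genes of mitochondrial protein quality were detected. The matrix chaperones HSPD1 and HSPA9 had 162 ± 8.14 and 85.7 ± 3.26 FPKM (SD, n = 3), and HSPE1, the partner of HSPD1, had 22.6 ± 1.63 FPKM. The matrix protease LONP1 had 61.4 ± 1.11 FPKM, the stress-activated inner-membrane protease OMA1 7.05 ± 0.415 FPKM, and DELE1, which relays mitochondrial damage to the ISR, stood at 11.8, 10.6 and 11.4 FPKM. SPG7, a subunit of an inner-membrane protease, was the lowest at 3.88 ± 0.171 FPKM.

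Antioxidant genes ran from abundant to nearly absent. Ferritin light and heavy chains, FTL and FTH1, stood at 263 ± 15.6 and 144 ± 7.17 FPKM (SD, n = 3), and thioredoxin, TXN, at 179, 211 and 194 FPKM. The 6 peroxiredoxins, which reduce peroxide, lay between 61.6 FPKM for PRDX1 and 171 ± 9.39 FPKM for PRDX5, with PRDX6 next at 103 FPKM. SOD1 had 88.1 ± 6.67 FPKM against 5.27 ± 0.274 FPKM for the mitochondrial SOD2 and 5.24 ± 0.240 FPKM for catalase. Glutathione peroxidases GPX1 and GPX4 had 127 ± 6.87 and 95.6 ± 3.08 FPKM, GPX8 and GPX3 had 16.8 and 7.66 FPKM, and the other 4 lay under 0.2 FPKM. The classical NRF2 target NQO1 stood at 0.970, 1.07 and 0.924 FPKM and was not detected in every library. AKR1C1, AKR1C2 and AKR1B10 lay between 0.0116 and 0.0128 FPKM, and AKR1C3 had no count. HMOX1, haem oxygenase, had 5.12 ± 0.547 FPKM, and the enzymes of glutathione synthesis GCLC and GCLM had 5.01 ± 0.0997 and 5.67 ± 0.343 FPKM. NFE2L2, which encodes NRF2, had 10.5 ± 0.752 FPKM, and its inhibitor KEAP1 had 21.7 ± 0.890 FPKM. Of the NRF2 list 19 of 27 genes were detected, and of the peroxide and superoxide list 13 of 18.

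Glycolytic genes led the hypoxia list. ENO1 stood at 395, 415 and 391 FPKM and LDHA at 87.5 ± 3.11 FPKM (SD, n = 3). HIF1A had 16.1, 15.3 and 16.6 FPKM in replicates 1, 2 and 3. EPAS1 had 2.47 ± 0.245 FPKM, and VHL, which marks both for degradation, had 54.8 ± 2.16 FPKM. CA9, a carbonic anhydrase widely used as a hypoxia marker, had no count in any library, EGLN3 had 0.816 ± 0.157 FPKM and ADM had 1.90 ± 0.200 FPKM. ALDOA was at 0.887 ± 0.183 FPKM and EGLN2 at 0.796 ± 0.0522 FPKM, with 92.9% and 93.4% of their coding bases shared with another gene model. In all 19 of 24 genes were detected.

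Targets of p53 were present at moderate levels. PMAIP1, which encodes the BH3 protein NOXA, stood at 118, 129 and 125 FPKM, GADD45A at 64.5, 67.4 and 64.6 FPKM and BAX at 42.3 ± 1.60 FPKM (SD, n = 3). CDKN1A, the cell-cycle inhibitor p21, had 28.3 ± 0.599 FPKM and MDM2, a ubiquitin ligase, 8.96, 11.1 and 10.3 FPKM. The death receptors differed, TNFRSF10B at 30.4 ± 2.12 FPKM and FAS at 1.36 ± 0.146 FPKM. Of 22 genes, 21 were detected and 5 were called as differing between libraries (22.7%, against 25.0% of all genes tested). Of the sterol genes, 21 of 23 were detected, led by PMVK, a kinase of the mevalonate pathway, at 43.5 ± 1.80 FPKM, the sterol sensor SCAP at 28.9 FPKM and the factor SREBF2 at 24.6 FPKM.

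The immediate early genes were uneven. JUN stood at 187, 181 and 178 FPKM, ATF3 at 107 FPKM, MYC at 55.1 ± 3.12 FPKM (SD, n = 3) and JUND at 50.0 ± 2.29 FPKM, whereas FOS, the usual partner of JUN, stood at 1.67, 1.44 and 1.06 FPKM. EGR1 had 5.94 ± 0.832 FPKM, and EGR2, EGR3 and NR4A3 lay under 0.4 FPKM. In all 12 of 18 genes were detected. ATF3 belongs to this list and to the ISR list and was counted under both.

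Most genes listed as NF-kB targets or as interferon-induced were not detected, and the factors of both pathways were detected in part. RELA had 14.1 ± 0.289 FPKM (SD, n = 3), NFKB2 8.89 FPKM, NFKB1 7.23 ± 0.843 FPKM and the inhibitor NFKBIB 23.1 ± 0.615 FPKM, while REL, at 0.713 FPKM, was the 1 of 5 factors not detected. The inhibitors NFKBIA at 7.16 and NFKBIE at 3.47 FPKM were also detected, and TNFAIP3 at 0.972 FPKM was not. Inhibitors and factors were not counted among the targets. Of 10 genes listed as NF-kB targets, TRAF1 at 1.99 ± 0.194 FPKM was detected, 8 lay between 0.0118 and 0.218 FPKM, and the cytokine IL6 had no count. In the interferon list, IRF3 had 17.0 ± 1.51 FPKM and STAT2 7.03 ± 0.533 FPKM, and 3 of the 6 factors, IRF1 at 0.674, IRF7 at 0.958 and IRF9 at 0.311 FPKM, were not detected. ISG15 stood at 28.8, 26.2 and 25.0 FPKM, IFI6 at 4.27, 6.80 and 5.43 FPKM and IFITM1 at 1.87, 3.29 and 2.67 FPKM. The other 12 of 15 induced genes were not detected, among them MX1 at 0.0334 FPKM and IFIT1 at 0.296 ± 0.102 FPKM. OAS1, OAS2, IFI44 and the cytokine IFNB1 had no count. IRF9, a partner of STAT2, shares 87.4% of its coding bases with another gene model.

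Metallothioneins, small zinc-binding proteins, were nearly silent. MT2A stood at 2.84, 5.28 and 4.29 FPKM, MT1F had 0.688 ± 0.169 FPKM (SD, n = 3) and MT1X 0.426 ± 0.113 FPKM. MT1A, MT1B, MT1E, MT1G, MT1H, MT1M, MT3 and MT4 had no count, and a count of 0 in a library allows up to 3. The metal-sensing factor MTF1 and the zinc exporter SLC30A1 had 2.21 ± 0.0870 and 4.29 ± 0.144 FPKM.

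The 16 genes of the URM1 and NEDD8 pathways that the study addressed were all detected in the control cells. URM1 is a ubiquitin-like protein that also carries sulphur for tRNA thiolation, and NEDD8 is the ubiquitin-like modifier of cullins. UBE2M, a NEDD8-conjugating enzyme, stood at 141, 146 and 143 FPKM and was the highest. NAE1 and UBA3, the 2 subunits of the NEDD8-activating enzyme, had 21.1 ± 1.30 and 18.2 ± 0.723 FPKM (SD, n = 3). URM1 stood at 12.2, 11.5 and 12.5 FPKM, its activating enzyme MOCS3 at 3.89 ± 0.145 FPKM, and the thiolation enzymes CTU1, CTU2 and NFS1 at 12.1 ± 0.820, 9.15 ± 0.895 and 4.70 ± 0.237 FPKM. NEDD8 had 8.77 ± 0.228 FPKM, with 76.6% of its coding bases shared with another gene model, and UBE2F, the second NEDD8-conjugating enzyme, 3.44 ± 0.457 FPKM, with 69.0% shared. The NEDD8 protease SENP8 had 2.40 ± 0.204 FPKM. Of the 5 NEDD8 co-factors, DCUN1D5 at 39.0, 48.2 and 45.5 FPKM was the highest and DCUN1D3 at 1.26 ± 0.106 FPKM the lowest. Of the 16 genes, 4 were called as differing between libraries (25.0%, the same share as over all genes tested), namely NAE1, DCUN1D2, DCUN1D5 and CTU2.

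Other ubiquitin-like modifiers gave a scale for the level of URM1, while that of NEDD8 is uncertain through the shared bases given above. The polyubiquitin gene UBB stood at 306 ± 10.0 FPKM (SD, n = 3), the ubiquitin-ribosomal fusion RPS27A at 282 ± 15.4 FPKM and FAU at 146 ± 7.36 FPKM. SUMO2 and SUMO3 had 80.6 ± 6.83 and 57.9 ± 2.11 FPKM, UBL5 43.2 ± 2.40 FPKM and UFM1 20.4 ± 1.24 FPKM. Of the ATG8 proteins of autophagy, GABARAPL2 had 27.4 ± 0.772 FPKM, MAP1LC3B 15.8 ± 0.700 FPKM and GABARAP 0.442 ± 0.0930 FPKM, the last with 73.1% of its coding bases shared. UBD, the interferon-induced modifier FAT10, had no count. The 8 cullins, substrates of NEDD8, were all detected, with a median of 9.47 FPKM and CUL1 highest at 59.2 FPKM.

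Markers were set against the label of an embryonic kidney line. All 7 proliferation genes were detected, from MKI67 at 18.0 ± 1.11 FPKM to PCNA at 252 ± 9.49 FPKM (SD, n = 3), and their summed level was 487, 506 and 512 FPKM. Of 8 neuronal genes, the neurofilament genes INA, NEFM and NEFL (19.9 ± 1.72, 17.7 ± 0.925 and 13.6 ± 0.819 FPKM), ENO2 and SYP were detected, with a sum between 65.2 and 71.0 FPKM. Of 7 kidney development genes, SIX2 at 9.54 ± 0.646, SALL1 at 7.62 ± 0.181, EYA1 at 2.86 ± 0.283 and PAX2 at 1.59 ± 0.151 FPKM were detected, and PAX8 had no count. Of 10 mature kidney genes LRP2 at 1.84 ± 0.206 FPKM was detected, and UMOD, AQP2, SLC12A3 and CDH16 had no count. No gene of 7 for adrenal cortex or of 6 for liver reached 0.1 FPKM on average. The blood genes PTPRC, CD3E and HBB had no count. VIM at 33.5 ± 1.90 and CDH2 at 18.5 ± 0.911 FPKM led the mesenchymal genes, of which 3 of 7 were detected, with COL3A1 at 0.302 and LUM at 0.101 FPKM among the others. KRT18 at 11.2 ± 1.04 FPKM led the epithelial genes, of which 2 of 5 were detected, with EPCAM at 0.687 FPKM, CDH1 at 0.706 FPKM and no count for KRT19, and LIN28B at 14.7 ± 1.70 and SOX2 at 2.60 ± 0.378 FPKM were the detected genes of 5 for pluripotency.

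Gene families differed as widely as the stress programmes. Of the cytosolic ribosomal proteins 81 of 86 were detected, with a median of 232 FPKM and RPS2 highest at 1987 ± 99.8 FPKM (SD, n = 3), and they made up 10.5% of all FPKM. All 9 subunits of the TRiC chaperonin were detected at a median of 77.6 FPKM, 36 of 37 complex I subunits at 21.9 FPKM, 40 of 48 proteasome genes (symbols in PSM) at 24.3 FPKM and 77 of 78 mitochondrial ribosomal proteins at 21.6 FPKM. The highest of each were CCT7 at 169 FPKM, NDUFS5 at 189.5 FPKM, PSMA7 at 125 FPKM and MRPS34 at 139 FPKM. Of the genes with an EIF symbol, 53 of 56 were detected, the highest being EIF4EBP1, which encodes a repressor of translation initiation, at 382 FPKM and the initiation factor EIF1 at 362 FPKM. At the other end, 0 of 381 olfactory receptors and 0 of 53 clustered protocadherins were detected, with OR2B6 at 0.906 FPKM and PCDHGC3 at 0.466 FPKM as the highest of each, and 4 of 55 keratins, 2 of 24 claudins, 3 of 41 chemokines and 4 of 45 genes named as interleukins or their receptors passed, with the receptor gene IL4R highest at 2.92 FPKM. Of the zinc finger genes named ZNF, 338 of 509 were detected at a median over all of 2.21 FPKM, and of the solute carriers 171 of 334. Cytochrome P450 genes were detected in 12 of 55 cases, none above CYP20A1 at 6.96 FPKM, and potassium channels in 20 of 95.

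The HOX genes, which set position along the body axis, were widely expressed. In cluster A 11 of 11 were detected, in B 9 of 10, in C 7 of 9 and in D 5 of 9. HOXB9 was highest at 134, 149 and 139 FPKM, followed by HOXA5 at 62.3 ± 2.11 FPKM (SD, n = 3) and HOXC4 at 29.2 ± 1.20 FPKM, and HOXD13 stood at 28.7, 28.6 and 29.0 FPKM. HOXB1 and HOXD1 had no count. Among transcription factor families as annotated in the deposited table, 20 of 22 MYB genes were detected (90.9%) and 39 of 48 bZIP genes (81.3%), with ATF4 the highest of the latter, against 10 of 29 ETS genes (34.5%) and 5 of 16 Pou genes (31.3%).

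The most abundant transcripts were mitochondrial. MT-CO2 stood at 6694, 7541 and 7320 FPKM, MT-CO1 at 6955, 7493 and 6359 FPKM and MT-CO3 at 5707, 6456 and 5901 FPKM, 3 subunits of cytochrome oxidase, and next came MT-ATP6, MT-RNR2, MT-ND4, MT-CYB, MT-ND3, the nuclear gene RPS2 and MT-ND4L. The 10 most abundant genes held 14.6 ± 0.344% of FPKM (SD, n = 3), the top 100 held 32.6 ± 0.790% and the top 1000 held 58.2 ± 0.818%. The 10 genes highest by counts, a different set in which long genes weigh more, held 5.70 ± 0.247% of counts. Mitochondrially encoded genes took 16.9, 17.7 and 17.3% of FPKM and 4.57, 4.93 and 4.57% of counts, with replicate 2 highest on both. Of the 19951 protein-coding genes, 3310 had no count, 6723 lay over 1 to 10 FPKM, 4298 over 10 to 100 FPKM, 240 over 100 to 1000 FPKM and 14 over 1000 FPKM.

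By biotype, protein-coding genes held 96.0 ± 0.0662% of counts (SD, n = 3), lincRNA 0.782 ± 0.0560%, mitochondrial rRNA 0.752 ± 0.0576%, processed pseudogenes 0.612 ± 0.00914% and antisense genes 0.556 ± 0.0139%. Processed pseudogenes are short and held 3.92% of FPKM. The highest were RPS28P7 at 1722 ± 49.6 FPKM and RPS2P5 at 1266 ± 35.3 FPKM, while RPS28, the parent of the first, was listed at 89.4 ± 5.32 FPKM. Reads of such copies cannot be placed with certainty, so these levels and those of their parents are uncertain. Of the noncoding genes, GAS5 at 197 ± 16.6 FPKM, AL035425.3 at 157 ± 2.08 FPKM, LRRC75A-AS1 at 135 ± 6.89 FPKM and SNHG1 at 125 ± 5.55 FPKM were among the highest. GAS5 and SNHG1 are known as hosts of small nucleolar RNAs.

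The libraries resembled one another closely. The biological coefficient of variation, the spread between libraries beyond counting noise, was 6.31% by edgeR. The coefficient of variation (CV) of FPKM had a median of 6.03% over detected protein-coding genes and lay between 1.59 and 15.6% for the middle 90% of them. The root mean square CV fell from 26.8% at 10 to 30 mean counts, where counting alone gives 22.8%, to 5.00% at 3000 to 10000 counts, where counting alone gives 1.52%. Of the 4003 called genes, replicate 1 was the farthest from the median in 1165 (29.1%), replicate 2 in 1337 (33.4%) and replicate 3 in 1501 (37.5%).

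**Figure D3:**
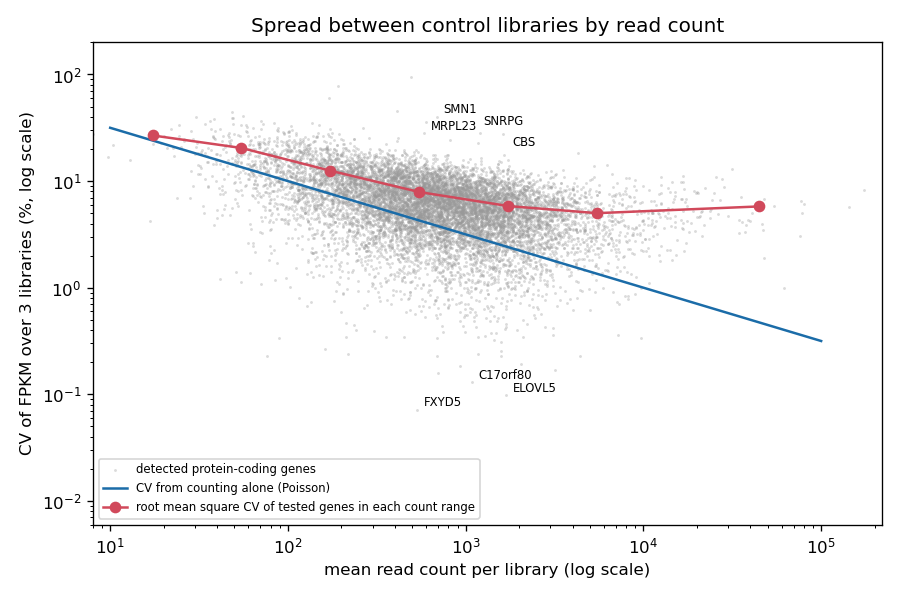
CV of FPKM over the 3 control libraries against the mean read count for 11066 detected protein-coding genes, both axes on log scales. Grey points are genes, the blue line is the CV that counting alone would give, and red points are the root mean square CV of tested genes in 7 ranges of count, which level off near 5% while the blue line keeps falling.

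The steadiest genes with at least 100 mean counts and 10 FPKM were FXYD5 at 10.9, 10.9 and 10.9 FPKM (CV 0.0715%), ELOVL5, C17orf80, RWDD2B and FOXK2. With 3 libraries the CV of a single gene is itself imprecise, and these values lay below what counting alone gives on average. The most variable were SMN1 (CV 40.3%), MRPL23 (28.2%), SNRPG (28.2%), CBS (27.5%) and NMU (20.2%). SMN1 stood at 19.7, 10.9 and 9.75 FPKM and its near-identical copy SMN2 at 10.3, 12.7 and 11.4 FPKM. CBS, which makes cystathionine, stood at 12.9, 19.1 and 11.6 FPKM, while its copy CBSL stood at 9.49, 8.35 and 7.44 FPKM. SNRPG, a splicing protein, stood at 46.8, 27.7 and 48.5 FPKM, and its pseudogenes SNRPGP10 and SNRPGP2 moved the other way, at 5.29, 24.5 and 3.90 FPKM and at 1.58, 7.32 and 1.39 FPKM. Summed over the copies, the CV of scaled counts was 19.3% for the SMN pair, 20.8% for the CBS pair and 22.8% for the SNRPG set. The part of read placement between copies in this spread was not tested. Outside the copied genes, IRS4, an insulin receptor substrate, stood at 70.5, 53.1 and 76.9 FPKM with replicate 2 lowest, and it was named after its values were seen.

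The residual differences between libraries followed gene length and base composition. Deviations were taken as log2 CPM (reads per gene scaled to library size) in a library minus the mean of the 3, over protein-coding genes with at least 100 mean counts. In the shortest decile of genes, 207 to 2376 bases, the median deviation was 0.05 in replicate 2 and -0.03 in replicate 3, and in the longest decile, over 10992 bases, it was -0.05 and 0.05. Replicate 2 lay above the mean for 74.4% of the shortest genes and 25.9% of the longest. Along GC content of the longest transcript, replicate 1 ran from -0.06 in the lowest decile to 0.06 at the highest, replicate 3 ran from 0.06 to -0.06, and replicate 2 stayed between -0.01 and 0.01. The length trend of replicate 2 was present within each tertile of GC content, its short and long tertiles differing in sign in all 3. The ribosomal proteins, which are short, deviated by 0.10 in replicate 2, and 75 of 83 tested were called as differing between libraries (90.4%, against 25.0% of all genes tested and 70.5% of genes over 3000 mean counts). Complex I subunits deviated by 0.09 and mitochondrially encoded genes by 0.10 in the same library. Whether length or GC content had a part in the calls of any gene was not tested.

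**Figure D4:**
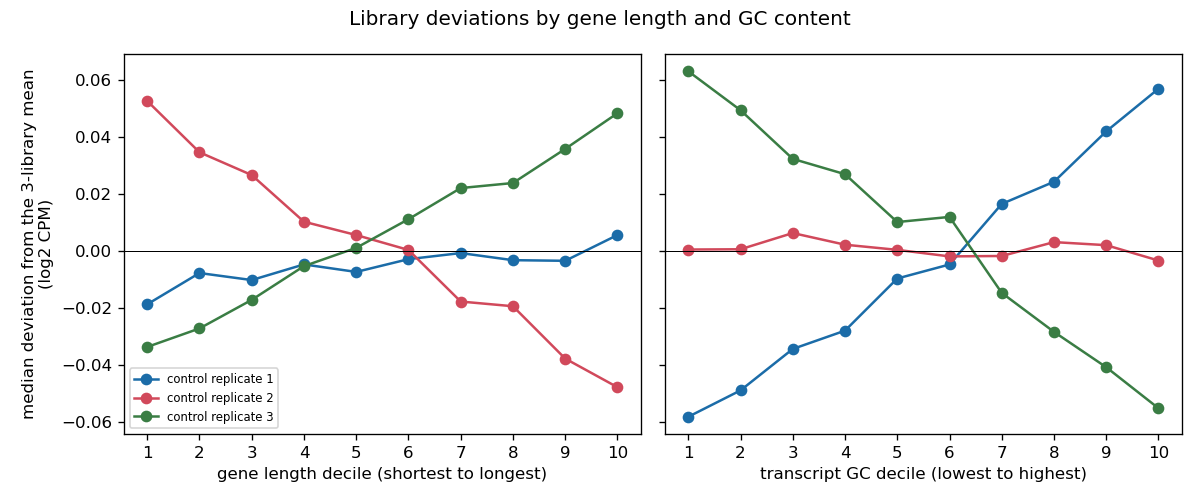
Median deviation of each control library from the mean of the 3, in log2 CPM, by deciles of gene length (left) and of transcript GC content (right). Each line is a library, replicate 2 falls and replicate 3 rises with length, and replicate 1 rises and replicate 3 falls with GC content.

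As lists, the stress programmes deviated by at most 0.17 log2 in a library at a prior count of 2. The mean log2 deviation of the ISR genes lay between -0.01 and 0.01 in the 3 libraries, and the unfolded protein response genes lay at -0.05, 0.02 and 0.03. The NF-kB genes lay at 0.17, -0.16 and -0.01, in a list where 10 of 19 genes had enough counts to be tested for homogeneity, and the value of 0.17 in replicate 1 was 0.04 over members of at least 10 CPM and 0.30 with a prior count of 0.5. The immediate early genes deviated by -0.11 in replicate 3 and the heat shock genes by -0.08 in the same library, values that were -0.0129 and -4.48e-05 over members of at least 10 CPM.

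Detection was lower among genes that share more than 20% of their exon bases with another gene on the same strand. Among protein-coding genes with under 5% overlap on the other strand, 7320 of 13410 genes (54.6%) that share no exon bases with another listed gene on their strand were detected. The share was higher with over 0 to 10% shared (820 of 1205, 68.0%) and over 10 to 20% shared (214 of 331, 64.7%), and lower in the classes above, with 188 of 415 (45.3%) at over 20 to 50%, 42 of 307 (13.7%) at over 50 to 90% and 6 of 357 (1.68%) at over 90%. On the coding bases alone, 10075 of 17438 genes with none shared were detected (57.8%) and 36 of 569 with all shared (6.33%). For overlap on the other strand the share detected was 51.9% with none shared, 67.4% at over 20 to 50%, 48.1% at over 50 to 90% and 19.2% (5 of 26) at over 90%. Whether reads were set aside where models overlap was not tested, and the models were those of GENCODE v44, of which 40933 of 58207 matched the deposited start and end. ALDOA, a core enzyme of glycolysis, at 0.887 FPKM and TUBB3, a neuronal tubulin, at 0.0417 FPKM were in the shared class. The levels of ASNS, NEDD8, UBE2F, GABARAP, EGLN2, TIGAR, IRF9 and CYP51A1, all with over 50% of their coding bases shared, are therefore uncertain as measures of the gene.

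**Figure D5:**
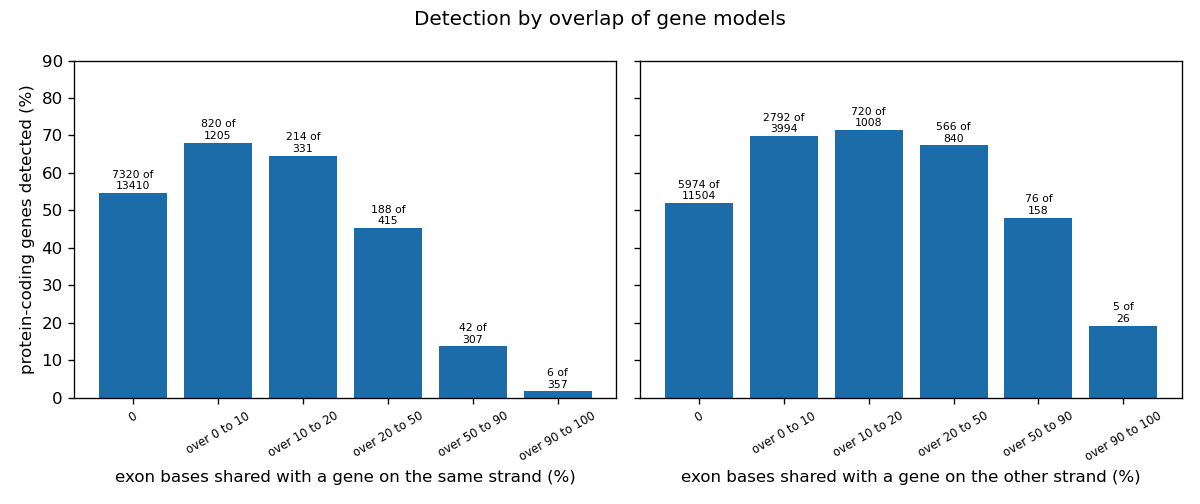
Share of protein-coding genes detected in all 3 control libraries (bars, from 0) by the percent of their exon bases shared with another gene model on the same strand (left) or the other strand (right), with the number detected of the number in each class above the bar. On the left, detection is 54.6% with none shared, rises to 68.0% with over 0 to 10% shared and lies at 1.68% with over 90% shared.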

How the data were processed

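Polyadenylated RNA of HEK293T cells was sequenced as strand-marked paired libraries of 150-base reads on a NovaSeq X Plus. The authors' pipeline was fastp for trimming, HISAT2 2.0.5 for alignment to GRCh38 and featureCounts 1.5.0-p3 for counting fragments, per the submitters' processing notes and the methods. The deposited counts are raw, unscaled integers. The deposited FPKM equal each count divided by the listed gene length and by a constant for the library, which was 1.04 to 1.07 times its total count. The strand setting of the counting and the annotation version are not given in the sources used here, so reads of antisense partners may not be separable.

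The 3 control libraries (15175945 to 15703118 counts) were grouped by the label and analysed alone, with no contrast between groups. Levels were given as mean ± SD of FPKM. Counts were scaled by TMM in edgeR 4.0.16 after its filterByExpr step (16021 genes), and the biological coefficient of variation came from an intercept-only design. Homogeneity was tested per gene by a chi-square test of counts against scaled library sizes, two-sided in effect, with Benjamini-Hochberg adjustment at 0.05. The test was also run on counts simulated with counting noise alone, which does not cover the wider spread of these libraries. List deviations used log2 CPM with a prior count of 2. Intervals and floors cover counting error only. Exon overlap and GC content used GENCODE v44, and promoters came from RefSeq on GRCh38.p14.

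Named genes were drawn from the genes of the study, the 10 highest genes, the 3 highest members of each stress list, the highest of each gene family, list members at 0, all ISR factors and secreted genes, all markers by class, the highest long noncoding RNAs, and the 5 highest and 5 lowest CVs among genes with at least 100 mean counts and 10 FPKM. Further members were named for their known role, after their values were seen. The members and lists were chosen with earlier results of these data known. Alternatives were other thresholds, TPM or CPM ranks, RLE or library totals, DESeq2 1.42.0 and leaving out each library. The overlap, GC, length and promoter steps were added after the data were seen. The knockdown libraries were not used. Single values of some members of the lists are not reported here.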

Additional observations from a re-analysis of the deposited data

How the results depend on the processing

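Of 196 alternative values, 159 stayed within the spread between libraries (for counts, within 1.5 times) and 37 moved. No paired analysis was possible because a single group was analysed, with no contrast to pair. At 5 FPKM 7505 genes were detected instead of 13179. The 10 genes highest by counts held 5.70% of them. DESeq2 gave a median spread of 8.87%, and leaving out a library gave 6.04 to 6.51%. Leaving out a library left 1941 to 2360 genes called for homogeneity instead of 4003, a test then made on 2 libraries.

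Ranked by CPM, which favours long genes, the median percentile among protein-coding genes was 96.5 for the integrated stress response (96.3 on FPKM), 85.5 for the unfolded protein response (81.0), 84.6 for heat shock (90.4), 75.6 for hypoxia (76.7), 74.0 for p53 (77.6), 35.7 for interferon (32.5), 73.5 for sterol (75.7), 48.4 for immediate early (53.5) and 86.9 for mitochondrial stress genes (88.6). Without members that share 50% or more of their coding bases, an alternative added after the data were seen, it was 96.6 for the integrated stress response, 78.7 for hypoxia and 76.8 for sterol genes. Leaving out a library gave 32.8 to 33.4 for interferon and 9.06 to 9.13 for metal genes. At 10 or more counts per library 13 interferon and 5 metal genes were detected, against 7 and 3.

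Many library deviations of lists moved. With members of at least 10 CPM they were -4.48e-05 for heat shock and -0.000606 for sterol genes in replicate 3, 0.00829 for NRF2, 0.0348 for hypoxia and -0.0129 for immediate early genes in replicate 3, 0.0706 for interferon genes in replicate 1, and 0.0462 for peroxide and superoxide and -0.0530 for metal genes in replicate 2. With a prior count of 0.5 peroxide and superoxide genes deviated by -0.123 in replicate 2. With library totals the values were -0.00562 for the integrated stress response and -0.00254 for p53 genes in replicate 2, and 0.000228 for mitochondrial stress genes in replicate 1. The cause was not tested. The length trend of replicate 2 (0.10 log2 from shortest to longest decile) and the GC trend of replicate 3 (0.12) stayed with library totals and with genes of at least 1000 counts, both added after the data were seen.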
